A study of Danio rerio with 10 samples.

Results

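The calpain genes described here are capn8 and the 7 family members measured beside it, namely capn9, capn1a, capn2a, capn2b, capn2l and the small subunits capns1a and capns1b. They were taken from the gene tables by symbol, and all 8 of 8 were found among the 25107 genes listed for each library. Single-cell RNA sequencing was performed on 10 whole zebrafish embryos (Danio rerio, from lines of Tubingen or AB strain origin), with 1 droplet library per embryo. The labels give the 3 somite stage, whereas the study's methods give the 4 somite stage. The groups were 3 dact1-/-;dact2-/- compound mutant embryos (dact1/2 mutant), 3 gpc4-/- mutant embryos (gpc4 mutant) and 4 wildtype embryos. The dact1 and dact2 alleles were CRISPR-made deletions that bring in premature stop codons, and the gpc4 allele was an insertion line. Mutant embryos were recognised by their truncated body axis and were not genotyped one by one. The question for this gene family was where capn8 RNA differed between the genotypes, and whether other calpains differed with it. The study had picked capn8 from these same embryos, so its calls and ranks here are not independent evidence.

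Calpains are cysteine proteases of the cytoplasm that are activated by calcium and cut their substrates at a few sites rather than degrading them. The classical enzymes pair a large catalytic subunit, such as calpain 1 or calpain 2, with a shared small regulatory subunit encoded by Capns1, and calpastatin inhibits them. Calpain 8 and calpain 9 are known from mammals as calpains of the gut lining that act together in the stomach. Dact1 and Dact2 are scaffold proteins that bind Dishevelled, and Gpc4 is a heparan sulfate proteoglycan of the cell surface. Both act in the non-canonical Wnt signalling that drives convergence and extension of the body axis.

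After quality filtering, 16449 of 21980 droplets were kept as cells, from 942 to 2634 per embryo, with 10168109 to 18839132 UMIs (counted RNA molecules) per embryo and a median of 4221 to 11027 UMIs per cell. Cells were clustered without the calpain genes and given "-like" names from marker genes. Raw UMIs were then summed per embryo over all cells, over 4 broad cell groups (ectoderm, paraxial mesoderm, lateral plate mesoderm, epidermis) and over single cell classes, and levels are given as counts scaled to a common total of that sum (CPM). Fewer expressing cells and less RNA per cell cannot be told apart in such sums. Changes are log2 fold changes from edgeR's quasi-likelihood test with Benjamini-Hochberg adjustment over all genes tested, and a gene is called at an adjusted p below 0.1 and a log2 fold change beyond 0.58 in size. Comparisons used wildtype replicates 2, 3 and 4, the wildtype embryos shown in the study's figure of such fits. The values with all 4 wildtype embryos are given where they matter. With all 4, called genes in the whole embryo of dact1/2 mutant against wildtype fell from 312 to 6. Wildtype replicate 1 stood apart in its cell makeup, with 153 of its 1118 cells in a cluster that came to 90.5% from it. Wildtype replicate 4 was kept, although 131 of its 942 cells lay in an unnamed cluster that came to 96.3% from it. Without it the capn8 log2 fold changes of dact1/2 mutant against wildtype were 2.02 in the whole embryo (adjusted p = 0.0204), 1.84 in ectoderm (adjusted p = 0.089), 5.26 in the paraxial (adjusted p = 0.000483) and 5.86 in the lateral plate mesoderm (adjusted p = 1.83e-07), all still called. The RNA levels of the targeted genes followed their labels in part. By RT-qPCR the study found dact2 mRNA raised rather than lowered in its dact2 single mutants. The dact1 level was lower in dact1/2 mutant embryos than in wildtype (log2 fold change -1.16, SE 0.17, adjusted p = 0.02; -1.22 and not called with all 4 wildtype embryos, adjusted p = 0.146), the dact2 change was 0.11 (adjusted p = 0.672), and gpc4 was lower in gpc4 mutant embryos than in wildtype (-1.71, SE 0.12, adjusted p = 0.000643). No source says that the embryos came from separate clutches, so p-values measure only the spread between these embryos.

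The 8 members differed widely in how often they were detected. Across the 10 embryos capn8 (ENSDARG00000055715) had 3189 UMIs and was seen in 11.4% of cells. The catalytic members capn9 (ENSDARG00000012341), capn1a (ENSDARG00000052702), capn2a (ENSDARG00000091699) and capn2b (ENSDARG00000055592) were seen in 4.43%, 3.09%, 8.26% and 3.56% of cells. The least detected member was capn2l (ENSDARG00000034211), with 182 UMIs in 0.997% of cells. The small subunits were detected more often, with capns1a (ENSDARG00000035329) in 16% of cells and capns1b (ENSDARG00000013804) in 37%. In the RefSeq gene table for assembly GRCz12tu, which is another build than the one the reads were mapped to, capn8 lies on chromosome 22 directly between capn2b and capn2l, with capn1b 1 coding gene farther on. In the same table capn1a and capn2a are neighbours on chromosome 13, with 5 and 4 coding genes between them and dact2. The other members lie elsewhere, with capn9 on chromosome 1, capns1a on chromosome 5 and capns1b on chromosome 15. How reads from near-identical stretches of these related genes were counted is not stated, so values of the neighbouring calpains are uncertain to that extent.

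In dact1/2 mutant embryos capn8 was higher in the whole embryo. Among the cell groups the difference from wildtype was largest in the mesoderm sums and smaller in ectoderm, while the epidermis held similar levels in all 3 genotypes. In the whole embryo the capn8 level was 42.5, 51.3 and 39.4 CPM in dact1/2 mutant embryos, 17.2, 11.01 and 12.7 CPM in gpc4 mutant embryos, and 7.79, 7.29, 16.0 and 12.01 CPM in wildtype replicates 1 to 4. All 3 dact1/2 mutant embryos lay above every gpc4 mutant and wildtype embryo, and the gpc4 mutant and wildtype ranges overlapped. The log2 fold change was 2.00 in dact1/2 mutant against wildtype (SE 0.22, adjusted p = 0.00473) and 1.75 in dact1/2 mutant against gpc4 mutant (SE 0.17, adjusted p = 0.00288). In gpc4 mutant against wildtype it was 0.27 (95% interval -0.37 to 0.90, adjusted p = 0.679), which is not a call. Of the 8 members, capn8 was the 1 called in each of the first 2 comparisons and 0 were called in the last (by edgeR or DESeq2). The background was 2.21% of 14141 genes in dact1/2 mutant against wildtype, 2.04% in dact1/2 mutant against gpc4 mutant and 2.41% in gpc4 mutant against wildtype. In the last comparison capns1b and capn9 had an unadjusted p below 0.05, as did 2374 of the 14137 genes tested. With all 4 wildtype embryos the capn8 value in dact1/2 mutant against wildtype was 2.13 and still called (adjusted p = 0.0809), where the share of called genes was 0.0415%.

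**Figure D1:**
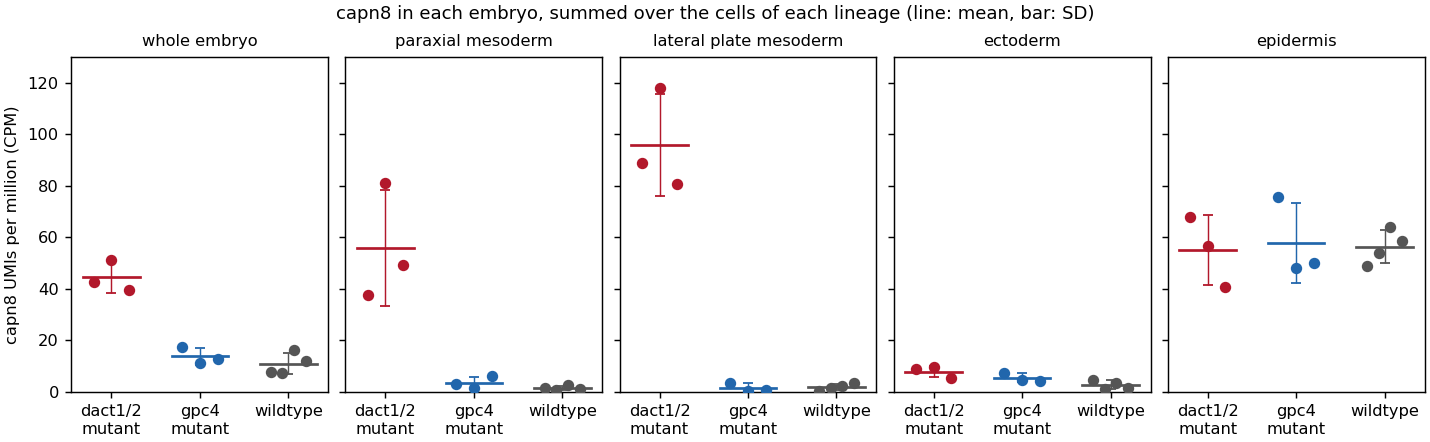
capn8 level in CPM (y axis, linear, from 0) in the whole embryo and 4 cell groups, with 1 panel each and 1 point per embryo. Genotype is on the x axis, with dact1/2 mutant left of gpc4 mutant and wildtype, a line at the group mean and a bar for the SD. In lateral plate mesoderm the dact1/2 mutant embryos sit between 80.6 and 118.1 CPM and no other embryo exceeds 3.39 CPM, whereas in epidermis the 3 genotypes overlap.

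The lateral plate mesoderm sum held the pronephros-, heart field-, cephalic mesoderm-, blood- and vessel-like classes. There the capn8 level was 88.9, 118.1 and 80.6 CPM in dact1/2 mutant embryos, 3.39, 0.346 and 0.492 CPM in gpc4 mutant embryos, and 0.395, 1.38, 2.04 and 3.199 CPM in wildtype. The groups did not overlap, and the lowest dact1/2 mutant embryo was far above the highest embryo of either other genotype. The log2 fold change was 5.56 in dact1/2 mutant against wildtype (SE 0.25, 95% interval 5.03 to 6.09, adjusted p = 9.44e-09), and capn8 had the smallest p of the 10026 genes tested. Ranks of capn8 in this and the paraxial mesoderm sum come from the embryos it was picked from. The log2 fold change was 6.03 in dact1/2 mutant against gpc4 mutant (SE 0.36, adjusted p = 1.06e-06). With all 4 wildtype embryos it was 5.88 (adjusted p = 0.000119), where 0.0393% of genes were called. Called genes were 1.92% of those tested against wildtype and 1.84% against gpc4 mutant, and of the 4 members that passed the low-count filter in each comparison capn8 was the 1 called. In gpc4 mutant against wildtype capn8 had too few counts to be tested. It therefore passed the filter through the dact1/2 mutant embryos alone, and the count of members called is partly set by that filter.

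The paraxial mesoderm sum held the adaxial-, somite- and presomitic mesoderm-like classes. The capn8 level was 37.4, 81.1 and 49.1 CPM in dact1/2 mutant embryos, 2.77, 1.305 and 5.86 CPM in gpc4 mutant embryos, and 1.22, 0.501, 2.35 and 0.903 CPM in wildtype. The dact1/2 mutant embryos again lay above all others, with replicate 2 the highest of the 3. The log2 fold change was 5.46 in dact1/2 mutant against wildtype (SE 0.43, 95% interval 4.53 to 6.38, adjusted p = 0.000108), with the smallest p of 9015 genes, and 4.13 in dact1/2 mutant against gpc4 mutant (SE 0.41, adjusted p = 0.00178). It was 5.51 with all 4 wildtype embryos (adjusted p = 0.000529, 0.0217% of genes called). Here 1.05% of genes were called against wildtype and 0.791% against gpc4 mutant, and capn8 was the 1 member called of 4 tested in each. In gpc4 mutant against wildtype 1.32% of genes were called and capn8 had too few counts to be tested. Here too capn8 passed the filter through the dact1/2 mutant embryos alone, so the count of members called is partly set by it.

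In ectoderm, summed over the neural-, neural plate- and neural crest-like classes, the capn8 level was low in every genotype, at 8.57, 9.53 and 5.17 CPM in dact1/2 mutant embryos, 7.32, 4.50 and 4.20 CPM in gpc4 mutant embryos, and 4.61, 0.994, 3.39 and 1.297 CPM in wildtype. All dact1/2 mutant embryos were above all wildtype embryos, but they overlapped with the gpc4 mutant embryos. Against wildtype capn8 changed by 2.06 on the log2 scale (SE 0.39, adjusted p = 0.0213), and capn8 was the 1 member called of 5 tested, against 1.78% of all genes. With all 4 wildtype embryos it was 1.83 and no longer called (adjusted p = 0.302, 0.0599% of genes called). Against gpc4 mutant it was 0.62 (95% interval -0.05 to 1.28, adjusted p = 0.479, 1.72% of genes called), and in gpc4 mutant against wildtype it was 1.43 (95% interval 0.45 to 2.42, adjusted p = 0.161, 2.15% of genes called), neither of them called.

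The epidermis carried the highest capn8 levels of the 4 cell groups in gpc4 mutant and wildtype embryos. The level there was 67.8, 56.6 and 40.6 CPM in dact1/2 mutant embryos, 75.5, 47.9 and 49.9 CPM in gpc4 mutant embryos, and 48.9, 53.9, 63.9 and 58.6 CPM in wildtype. The 3 genotypes overlapped fully. For capn8 the log2 fold change was -0.03 in dact1/2 mutant against wildtype (95% interval -0.39 to 0.33, adjusted p = 0.962, 1.35% of genes called), 0.02 in dact1/2 mutant against gpc4 mutant (95% interval -0.44 to 0.48, adjusted p = 0.99, 1.55% of genes called) and -0.05 in gpc4 mutant against wildtype (95% interval -0.46 to 0.36, adjusted p = 0.96, 1.37% of genes called).

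The difference between cell groups was itself tested, in a fit chosen after the values were seen that took the embryo as a term and compared the genotype effect in each cell group with that in epidermis. For dact1/2 mutant against wildtype the capn8 effect exceeded that of epidermis by 5.57 on the log2 scale in lateral plate mesoderm (SE 0.30, adjusted p = 4.47e-11), where 0.064% of genes were called for such a difference. The excess was 5.46 in paraxial mesoderm (SE 0.44, adjusted p = 1.65e-09, 0.478% of genes called) and 2.05 in ectoderm (SE 0.34, adjusted p = 0.017, 0.0364% of genes called), and no other member was called. For dact1/2 mutant against gpc4 mutant the lateral plate mesoderm exceeded epidermis by 6.05 (adjusted p = 5.5e-10, 0.201% of genes called) and the paraxial mesoderm by 4.16 (adjusted p = 1.26e-06, 0.248% of genes called). The ectoderm difference in this comparison was 0.59 (adjusted p = 0.99), and for gpc4 mutant against wildtype the differences were 1.35 in paraxial mesoderm (adjusted p = 0.72), -0.48 in lateral plate mesoderm (adjusted p = 0.993) and 1.49 in ectoderm (adjusted p = 0.496), none of them called. With all 4 wildtype embryos the ectoderm difference was 1.82 and not called (adjusted p = 0.35), whereas the excess in lateral plate mesoderm was 5.83 (adjusted p = 3.36e-07), and capn8 was the 1 gene called of 11051 (0.00905%).

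The origin of the capn8 molecules shifted accordingly. Epidermis supplied 23%, 22.6% and 16.7% of an embryo's capn8 UMIs in dact1/2 mutant embryos, 64.2%, 82.5% and 68.2% in gpc4 mutant embryos, and 73.9%, 75.3%, 80.5% and 83.5% in wildtype. Lateral plate mesoderm supplied 33.5%, 34.1% and 39.6% in dact1/2 mutant embryos, 4.25%, 0.649% and 0.775% in gpc4 mutant embryos, and 0.87%, 4.94%, 2.33% and 4.32% in wildtype. Paraxial mesoderm supplied 16.2%, 20.3% and 25.8% in dact1/2 mutant embryos, 3.3%, 1.95% and 8.53% in gpc4 mutant embryos, and 3.48%, 1.23%, 2.33% and 1.44% in wildtype. Shares of both mesoderm groups were higher in each dact1/2 mutant embryo than in any other embryo. Epidermis held 12.4%, 15% and 12.7% of the cells of the dact1/2 mutant embryos, 12.3% to 18.4% in gpc4 mutant embryos and 8.87% to 14.5% in wildtype, so its cell shares overlapped between genotypes where its shares of capn8 did not.

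**Figure D2:**
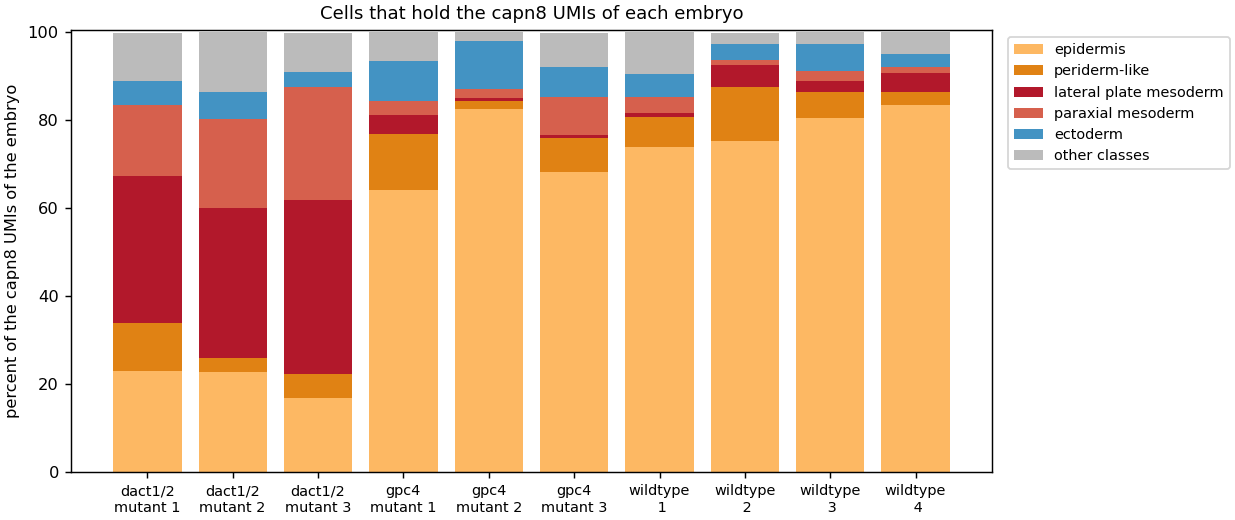
Percent of each embryo's capn8 UMIs (y axis, from 0) that came from each cell group, 1 stacked bar per embryo, with dact1/2 mutant embryos left of gpc4 mutant and wildtype embryos. Epidermis supplies at most 23% in dact1/2 mutant embryos and at least 64.2% in every other embryo.

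More mesoderm cells carried a capn8 molecule in dact1/2 mutant embryos. To compare shares of positive cells across depths, each cell was thinned to 1500 UMIs. In lateral plate mesoderm 10.2% ± 3.69 of cells were then capn8-positive in dact1/2 mutant embryos (SD, n = 3), against 0.0679% in gpc4 mutant and 0.203% in wildtype embryos on average. In paraxial mesoderm the shares were 7.33% ± 3.78 (SD, n = 3) in dact1/2 mutant, 0.604% in gpc4 mutant and 0.152% in wildtype embryos. These mesoderm shares in dact1/2 mutant embryos were close to those of epidermis, which were 9.61% ± 2.74 (SD, n = 3) in dact1/2 mutant, 10.7% in gpc4 mutant and 9.78% in wildtype embryos, while ectoderm cells, whose medians of 5405 to 6547 UMIs in dact1/2 mutant embryos were above the 4250 to 5292.5 UMIs of lateral plate mesoderm cells, had 1.51% ± 0.559 (SD, n = 3) in dact1/2 mutant, 0.715% in gpc4 mutant and 0.371% in wildtype embryos. Without thinning the shares in lateral plate mesoderm were 25.9% in dact1/2 mutant, 0.80% in gpc4 mutant and 0.973% in wildtype embryos. Positive lateral plate mesoderm cells of dact1/2 mutant embryos held 2.16, 1.75 and 2.40 capn8 UMIs per cell in replicates 1 to 3, so detection was not limited to single molecules.

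Within the mesoderm of dact1/2 mutant embryos capn8 was spread over every named class rather than held in 1 of them. The highest mean levels were in heart field-like cells (112.9 CPM ± 27.9), pronephros-like cells (112.8 CPM ± 24.8), hematopoietic-like cells (108 CPM ± 29.1) and vasculogenic and myeloid-like cells (95.2 CPM ± 20; SD, n = 3 each). Adaxial-like cells followed with 90.6 CPM, somite-like cells with 70.6 CPM, cephalic mesoderm-like cells with 60.9 CPM and notochord-like cells with 48.4 CPM. Lower means were found in presomitic mesoderm-like cells (27.8 CPM) and tail bud-like cells (24.1 CPM). Outside the mesoderm, neural crest-like cells had 9.76 CPM and neural-like cells 5.79 CPM. In this order of 21 classes every class overlapped with its neighbours over the embryos, so the ranks of adjacent classes are not separated by the data. Heart field-like cells (87.8 to 142.9 CPM) did lie above epidermis-like cells (43.1 to 71.2 CPM) in dact1/2 mutant embryos. In the other genotypes epidermis-like cells ranked first, with 63.4 CPM ± 13.5 in gpc4 mutant embryos (SD, n = 3) and 60.9 CPM ± 8.25 in wildtype (SD, n = 4), and did not overlap with the next class.

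**Figure D3:**
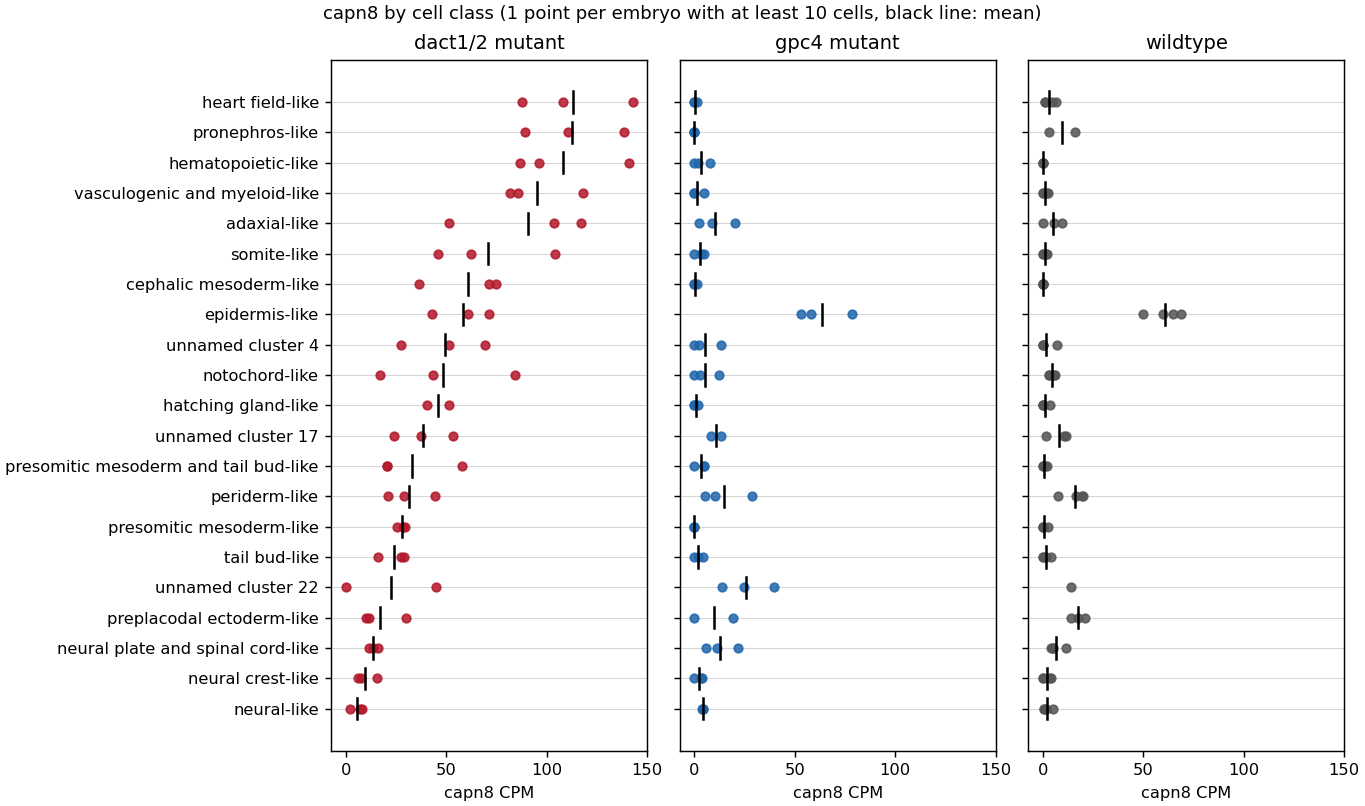
capn8 level in CPM (x axis, linear, from 0) in each cell class (y axis, ordered by the dact1/2 mutant mean), in separate panels for dact1/2 mutant, gpc4 mutant and wildtype embryos, with 1 point per embryo that held at least 10 cells of the class and a black line at the mean. In dact1/2 mutant embryos 7 mesoderm-like classes, from heart field-like (112.9 CPM) to cephalic mesoderm-like (60.9 CPM), have means above epidermis-like cells (58.4 CPM), and in the others epidermis-like cells rank first.

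Within single mesoderm-like classes capn8 was called higher in each of the 7 that could be tested against wildtype. That count was partly set by the low-count filter. Wildtype replicates 2 to 4 held 0 to 8 capn8 UMIs in each of the 7, so capn8 passed through the dact1/2 mutant embryos alone. The same holds against gpc4 mutant embryos, which had 8 capn8 UMIs in somite-like and 2 in vasculogenic and myeloid-like cells. Tail bud-like cells (50 UMIs in dact1/2 mutant, 3 in wildtype replicates 2 to 4) and notochord-like cells (70 and 3) did not pass. In heart field-like cells capn8 was 107.9, 142.9 and 87.8 CPM in dact1/2 mutant embryos, 0, 1.47 and 0 CPM in gpc4 mutant embryos, and 0.953, 1.21, 4.70 and 6.40 CPM in wildtype, with a log2 fold change of 4.85 against wildtype (SE 0.35, adjusted p = 4.06e-08, with 0.623% of genes called). In somite-like cells it was 45.8, 103.9 and 62.1 CPM in dact1/2 mutant embryos, 3.62, 0 and 4.81 CPM in gpc4 mutant embryos, and 0, 0, 1.80 and 2.31 CPM in wildtype (5.61 against wildtype, SE 0.49, adjusted p = 2.3e-06, 0.788% of genes called; 4.67 against gpc4 mutant, adjusted p = 2.49e-05, 1.15% of genes called). The dact1/2 mutant embryos were above all others in both classes. In vasculogenic and myeloid-like cells the log2 fold change was 5.74 against wildtype (SE 0.50, adjusted p = 5.01e-07, 1.11% of genes called) and 5.60 against gpc4 mutant (adjusted p = 7.6e-06, 0.864% of genes called), and in cells of mixed presomitic mesoderm and tail bud identity it was 5.27 against wildtype (adjusted p = 0.000433, 1.21% of genes called).

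In 3 classes wildtype replicates 2 to 4 had no capn8 UMI at all. Only a lower bound of the fold can be given, for counts pooled over the embryos of each group and set against 3 UMIs over the group. Hematopoietic-like cells held 185 capn8 UMIs in dact1/2 mutant embryos and 0 in wildtype, at least 45.3-fold higher (adjusted p = 4.34e-07, 2.81% of genes called). Cephalic mesoderm-like cells held 124 and 0 UMIs, at least 40.6-fold higher (adjusted p = 1.3e-06, 0.871% of genes called), and presomitic mesoderm-like cells 46 and 0, at least 12.5-fold higher (adjusted p = 0.000615, 0.523% of genes called). Pronephros-like cells, with 89.1, 138.6 and 110.6 CPM in dact1/2 mutant embryos, held 60 UMIs against 0 in gpc4 mutant embryos, at least 21.1-fold higher (adjusted p = 0.000813, 0.859% of genes called). An unnamed cluster led by mcama, pltp and foxa1 had a log2 fold change of 4.11 against wildtype (adjusted p = 0.0101, 0.168% of genes called), which was 4.68 and not called with all 4 wildtype embryos (adjusted p = 0.206). It held 84 capn8 UMIs in dact1/2 mutant embryos and 3 in wildtype replicates 2 to 4. In both this cluster and the pronephros-like cells capn8 passed the low-count filter through the dact1/2 mutant embryos alone. Adaxial-like cells, the slow muscle precursors beside the notochord, had 51.4, 116.9 and 103.5 CPM in dact1/2 mutant and 2.41, 8.71 and 20.5 CPM in gpc4 mutant embryos, without overlap, but were not called (3.23, adjusted p = 0.126, where 0.0268% of genes were called).

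No capn8 difference was called in the outer cell layers. In epidermis-like cells the capn8 log2 fold change was -0.08 in dact1/2 mutant against wildtype (adjusted p = 0.902, 1.33% of genes called) and -0.06 against gpc4 mutant (adjusted p = 0.944, 2.05% of genes called). In periderm-like cells, the flat outermost sheet of the embryo, capn8 was 44.3, 29.2 and 21.0 CPM in dact1/2 mutant embryos, 29.0, 5.24 and 10.4 CPM in gpc4 mutant embryos, and 16.4, 19.6, 20.2 and 7.50 CPM in wildtype. The dact1/2 mutant embryos were above all 4 wildtype embryos there but overlapped with the gpc4 mutant embryos, and neither difference was called (1.04 against wildtype, adjusted p = 0.357; 0.88 against gpc4 mutant, adjusted p = 0.526).

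Marker genes of the skin layers were present in the mesoderm sums of all genotypes, and epidermis carries capn8 too; their part in the capn8 values was not tested. In lateral plate mesoderm the summed level of the 19 epidermis markers was 481.2 to 732.1 CPM in dact1/2 mutant, 623.9 to 1280 CPM in gpc4 mutant and 350.3 to 725.7 CPM in wildtype embryos, against 6575 to 7717, 6220 to 8533 and 4768 to 7985 CPM in the epidermis sum itself. The 21 periderm markers summed to 330.4 to 585.7 CPM in dact1/2 mutant, 472.5 to 1419 CPM in gpc4 mutant and 289.1 to 505.6 CPM in wildtype lateral plate mesoderm. The highest value of both lists there belonged to gpc4 mutant replicate 1, which had 3.39 CPM of capn8, and the other gpc4 mutant embryos overlapped with dact1/2 mutant embryos in both lists. In paraxial mesoderm the epidermis markers summed to 499.6 to 593.1 CPM in dact1/2 mutant, 419.8 to 645.2 CPM in gpc4 mutant and 227.5 to 510 CPM in wildtype embryos. The periderm markers there summed to 390 to 694.1 CPM in dact1/2 mutant, 436.7 to 679.6 CPM in gpc4 mutant and 137.9 to 357 CPM in wildtype embryos. None of tp63, krt5, krt17, krt4 and anxa1c was at 0 in either mesoderm sum of any embryo. The marker levels were also split by whether a cell held a capn8 UMI after thinning to 1500 UMIs (39, 86 and 27 positive and 371, 519 and 363 negative lateral plate mesoderm cells in dact1/2 mutant replicates 1 to 3), which leaves many cells with a capn8 UMI in the negative group. Among lateral plate mesoderm cells the epidermis markers summed to 516, 493.6 and 430 CPM in capn8-positive cells, against 751.6, 479.2 and 606 CPM in capn8-negative cells, lower in the positive cells of replicates 1 and 3. In paraxial mesoderm the values were 874.3, 390.2 and 1573 CPM in positive and 478.9, 618.6 and 527.4 CPM in negative cells, higher with capn8 in replicates 1 and 3. There tp63 was seen in 8.7%, 14.3% and 10% of the 23, 49 and 20 positive cells. Its share of negative cells was 5.9%, 4.32% and 3.8%, lower in all 3 embryos. In lateral plate mesoderm tp63 was seen in 5.13%, 1.16% and 3.7% of positive cells. There its share of negative cells was 7.55%, 2.12% and 5.23%, higher in all 3. For krt17 the direction was not the same in the 3 embryos in either cell group.

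In the main fits, which took no replicate term, none of the other 7 members was called in any of the 5 sums. Of 105 combinations of member, sum and comparison, 71 had enough counts to be tested, 0 were called by edgeR or by DESeq2, and 14 (19.7%) had an unadjusted p below 0.05, beside 13.5% of all gene tests in the same 15 fits (8.71% to 18.3% per fit). Most of what could not be tested was in the mesoderm, where capn9, capn1a, capn2b and capn2l had few counts, so the comparison with capn8 there rests on 3 members. Over the tested members, capn8 included, the median log2 fold change in dact1/2 mutant against wildtype was 0.15 in the whole embryo (all genes tested, -0.02), 0.03 in lateral plate mesoderm (all genes, -0.01) and 0.36 in paraxial mesoderm (all genes, 0.01). Without capn8 the medians were 0.08 in the whole embryo, 0.0009 in lateral plate mesoderm and 0.28 in paraxial mesoderm.

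**Figure D4:**
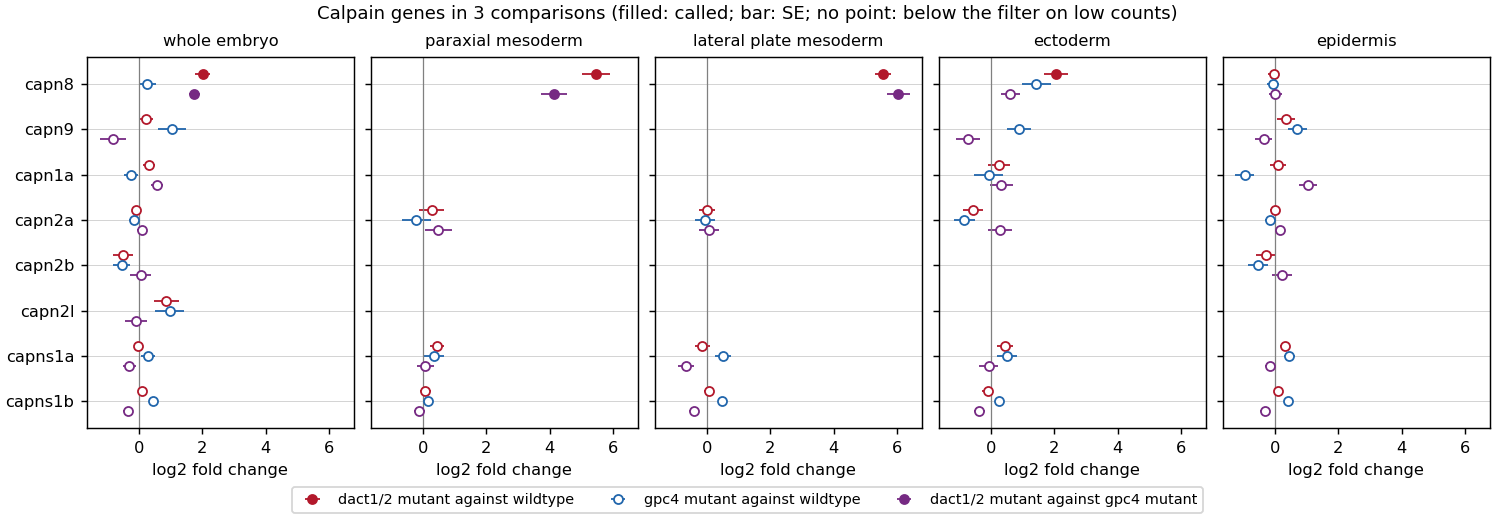
log2 fold change ± SE of each of the 8 members (y axis) in 5 sums, for dact1/2 mutant against wildtype, dact1/2 mutant against gpc4 mutant and gpc4 mutant against wildtype. Filled points are called, open points are not, and a missing point did not pass the low-count filter; the filled points all belong to capn8, in the whole embryo, both mesoderm sums and ectoderm.

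Among the catalytic subunits capn2a, the large subunit of an m-calpain, was the 1 that could be tested in both mesoderm sums. Its level in lateral plate mesoderm was 9.83, 7.54 and 8.15 CPM in dact1/2 mutant embryos, 7.54, 11.4 and 5.41 CPM in gpc4 mutant embryos, and 3.95, 6.56, 10.6 and 10.1 CPM in wildtype. The ranges overlapped throughout. The upper 95% bound of its log2 fold change in dact1/2 mutant against wildtype was 0.57, the highest of the other members there, against the lower bound of 5.03 for capn8. In paraxial mesoderm capn2a was 3.80, 7.04 and 5.50 CPM in dact1/2 mutant embryos, 2.38, 6.09 and 3.197 CPM in gpc4 mutant embryos, and 3.05, 5.52, 5.65 and 2.71 CPM in wildtype, again with overlap, and its upper bound was 1.13 against the capn8 lower bound of 4.53. In epidermis, where capn2a was highest among the 4 cell groups, it was 46.8, 45.1 and 37.9 CPM in dact1/2 mutant embryos, 43.3, 40.3 and 39.1 CPM in gpc4 mutant embryos, and 17.3, 48.6, 37.7 and 51.5 CPM in wildtype, with replicate 1 of wildtype apart from the rest.

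The chromosomal neighbours of capn8 had low mesoderm levels in all genotypes. In lateral plate mesoderm capn2b, another calpain 2 catalytic subunit, was 1.09, 1.08 and 0.906 CPM in dact1/2 mutant embryos, 3.02, 0.691 and 0.492 CPM in gpc4 mutant embryos, and 0, 0.691, 0.818 and 0 CPM in wildtype. In the same cells capn2l was 1.09, 1.08 and 0 CPM in dact1/2 mutant embryos, 1.51, 0.691 and 0 CPM in gpc4 mutant embryos, and 0, 0.345, 0 and 0 CPM in wildtype. Neither passed the filter there, and for both the gpc4 mutant embryos spanned the dact1/2 mutant ones. In the whole embryo capn2l was 1.98, 1.54 and 1.23 CPM in dact1/2 mutant embryos, 2.60, 1.43 and 1.28 CPM in gpc4 mutant embryos, and 0.406, 0.45, 0.891 and 1.47 CPM in wildtype, a log2 fold change of 0.86 in dact1/2 mutant against wildtype (SE 0.39, adjusted p = 0.285). Whole-embryo capn2b was 8.74, 10.7 and 3.77 CPM in dact1/2 mutant embryos, 8.44, 9.80 and 5.02 CPM in gpc4 mutant embryos, and 0.88, 10.3, 15.8 and 9.16 CPM in wildtype, with a log2 fold change of -0.49 in dact1/2 mutant against wildtype. Hatching gland-like cells held the highest capn2b levels, at 247.2 CPM in dact1/2 mutant, 177.1 CPM in gpc4 mutant and 201.8 CPM in wildtype embryos on average (n = 2, 3 and 4 embryos with at least 10 such cells).

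The catalytic subunit of calpain 1, capn1a, was mainly an epidermis gene here. In epidermis it was 13.7, 11.4 and 13.5 CPM in dact1/2 mutant embryos, 8.33, 6.41 and 4.53 CPM in gpc4 mutant embryos, and 4.03, 15.9, 11.46 and 11.1 CPM in wildtype. All 3 gpc4 mutant embryos were below the dact1/2 mutant embryos and below wildtype replicates 2 to 4. The log2 fold change in dact1/2 mutant against gpc4 mutant was 1.05 (SE 0.28, adjusted p = 0.108), just short of a call, where 1.55% of genes were called. With the replicate number as a block it was 1.05 and called (adjusted p = 0.0687). In gpc4 mutant against wildtype it was -0.95 (adjusted p = 0.213), with 1.37% of genes called.

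The capn9 gene, whose mammalian protein partners calpain 8 in the stomach, marked the periderm instead of following capn8. In periderm-like cells it was 104.9, 90 and 130.9 CPM in dact1/2 mutant embryos, 355.5, 190.2 and 93.5 CPM in gpc4 mutant embryos, and 201.5, 125, 122.9 and 227.5 CPM in wildtype, and in each genotype no other class overlapped with it. The lowest gpc4 mutant embryo, replicate 3, fell within the dact1/2 mutant range. That embryo had the fewest periderm-like cells, 25 (1.34% of its cells), against 33 to 61 (1.97% to 4.86%) in the other 9 embryos. In the whole embryo capn9 was 8.79, 7.96 and 11.3 CPM in dact1/2 mutant embryos, 30.8, 12.2 and 8.16 CPM in gpc4 mutant embryos, and 9.95, 6.48, 7.95 and 11.2 CPM in wildtype, where gpc4 mutant replicate 1 was the highest (log2 fold change in gpc4 mutant against wildtype 1.05, SE 0.45, adjusted p = 0.285).

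Periderm-like cells were the class in which other members were called. In dact1/2 mutant against gpc4 mutant 3 of 6 tested members were lower, where 2.36% of all genes were called lower and 2.8% in either direction. Against wildtype edgeR called no member, with 0.849% of genes called. There 3 members had an unadjusted p below 0.05, as did 545 of the 5181 genes tested. The called members were capns1a (-1.16, SE 0.23, adjusted p = 0.014), capn9 (-1.13, SE 0.31, adjusted p = 0.0899) and capns1b (-0.97, SE 0.27, adjusted p = 0.0949). The capns1a levels were 89.5, 57.3 and 68.1 CPM in dact1/2 mutant embryos, 176.5, 174.5 and 109.1 CPM in gpc4 mutant embryos, and 107.8, 63.7, 119.2 and 175 CPM in wildtype, without overlap between the mutants. The capns1b levels were 112.6, 91.2 and 106.5 CPM in dact1/2 mutant embryos and 264.8, 205.9 and 83.1 CPM in gpc4 mutant embryos, where replicate 3 fell below all dact1/2 mutant embryos. The direction of all 3 was opposite to the uncalled capn8 difference of 0.88 in the same cells.

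The small subunits were detected in every cell group, including the mesoderm that carried capn8 in dact1/2 mutant embryos. In lateral plate mesoderm capns1b was 78.7, 58.2 and 63.4 CPM in dact1/2 mutant embryos, 88.6, 102.3 and 83.7 CPM in gpc4 mutant embryos, and 51.7, 64.6, 79.0 and 59.2 CPM in wildtype. The dact1/2 mutant and wildtype embryos overlapped, and the gpc4 mutant embryos were the highest. For capns1b the log2 fold change was 0.05 in dact1/2 mutant against wildtype and 0.48 in gpc4 mutant against wildtype (adjusted p = 0.122, where 1.85% of genes were called). In paraxial mesoderm capns1b was 44.98, 38.1 and 54.2 CPM in dact1/2 mutant embryos, 54.3, 46.5 and 50.6 CPM in gpc4 mutant embryos, and 48.5, 43.6, 49.0 and 44.7 CPM in wildtype, with a log2 fold change of 0.07 in dact1/2 mutant against wildtype. In the whole embryo capns1b was 71.5, 57.1 and 74.5 CPM in dact1/2 mutant embryos, 101.4, 86.6 and 81.7 CPM in gpc4 mutant embryos, and 62.2, 66.3, 70.9 and 69.0 CPM in wildtype. The gpc4 mutant embryos lay above all others, and the log2 fold change of 0.44 against wildtype (SE 0.09, adjusted p = 0.064) was below the fold threshold.

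The hematopoietic-like cells were the other place with a called small subunit. There capns1b was 75.3, 38.3 and 45.4 CPM in dact1/2 mutant embryos, 83.3, 71.0 and 69.8 CPM in gpc4 mutant embryos, and 33.2, 39.5 and 34.1 CPM in wildtype replicates 2 to 4. The gpc4 mutant embryos did not overlap with wildtype (log2 fold change 1.12, SE 0.25, adjusted p = 0.0227, with 1.73% of genes called), and the dact1/2 mutant embryos spanned both ranges. For capns1a in lateral plate mesoderm the levels were 13.8, 10.4 and 14.0 CPM in dact1/2 mutant embryos, 19.6, 26.6 and 14.3 CPM in gpc4 mutant embryos, and 13.4, 17.97, 11.04 and 14.9 CPM in wildtype, with a log2 fold change of -0.14 in dact1/2 mutant against wildtype. In paraxial mesoderm capns1a was 15.8, 15.3 and 16.1 CPM in dact1/2 mutant embryos, 13.5, 22.2 and 9.59 CPM in gpc4 mutant embryos, and 9.45, 9.53, 15.1 and 11.7 CPM in wildtype. The dact1/2 mutant embryos were all above wildtype there, by 0.44 on the log2 scale, which was not called. Hatching gland-like cells held the highest capns1a levels, at 487.5 CPM in dact1/2 mutant, 442.9 CPM in gpc4 mutant and 395.8 CPM in wildtype embryos on average.

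**Figure D5:**
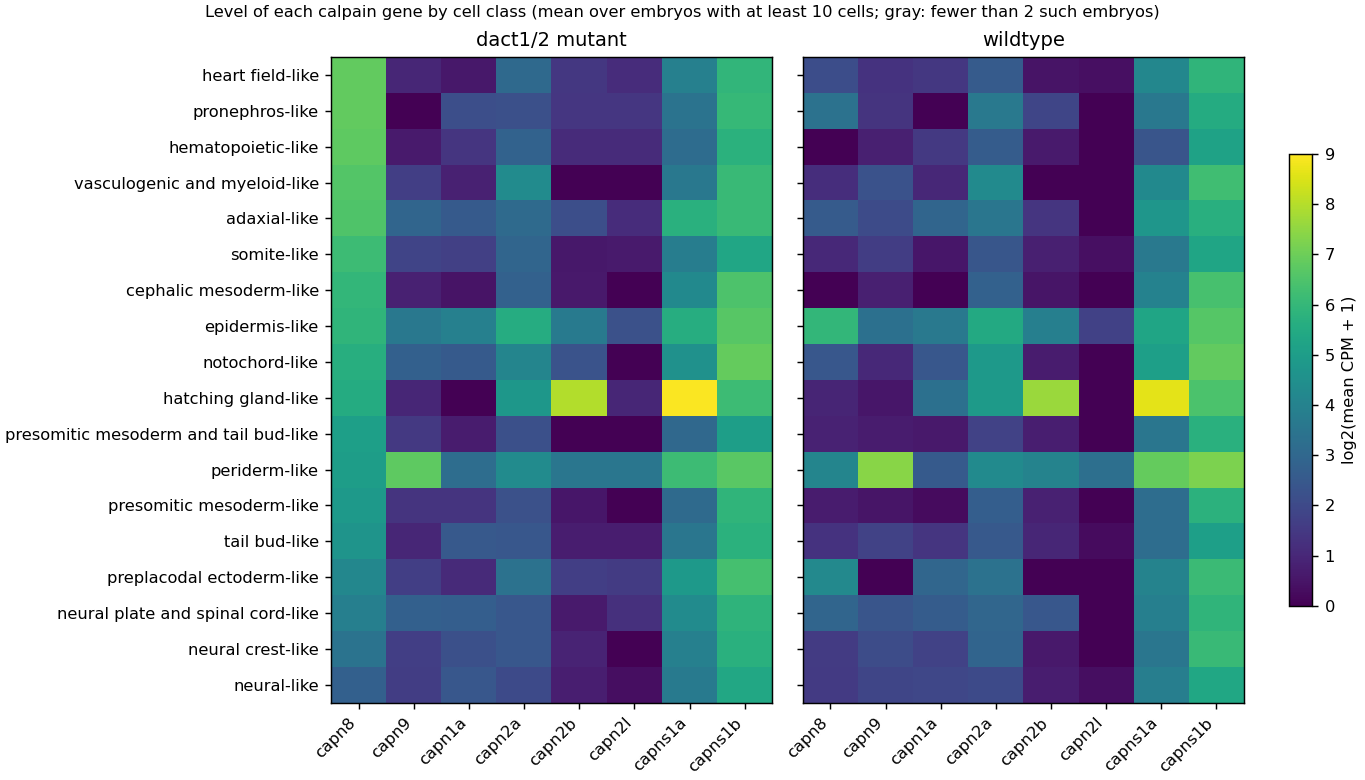
Mean level of the 8 members (x axis) in each named cell class (y axis) as log2(CPM + 1), shown by colour, with dact1/2 mutant embryos left and wildtype embryos right. The capn8 values are high across the mesoderm-like classes in dact1/2 mutant embryos and in epidermis-like cells in both, whereas capn9 stays with periderm-like cells and capn2b with hatching gland-like cells.

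Mesoderm cells with and without a capn8 molecule after thinning were set side by side for the small subunit capns1b, with the same mixed negative group as above. Among lateral plate mesoderm cells of dact1/2 mutant replicates 1 to 3, its level was 70.6, 63.6 and 71.7 CPM in capn8-positive cells and 79.4, 57.3 and 62.8 CPM in capn8-negative cells. In paraxial mesoderm it was 72.9, 40.9 and 37.0 CPM in positive cells and 43.5, 37.7 and 55.0 CPM in negative cells. The direction was not the same in the 3 embryos in either cell group, and no test was made.

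Across cell classes the pattern of capn8 resembled some other calpains moderately in wildtype and hardly any in dact1/2 mutant embryos. Likeness was taken as Pearson's r of log2(mean CPM + 10) over classes, which share libraries and are not independent. Over 20 classes in wildtype embryos r with capn8 was 0.665 for capn1a, 0.58 for capn2a, 0.513 for capn2l, 0.421 for capn9, 0.355 for capns1b, 0.204 for capns1a and 0.132 for capn2b. The highest class means of capn1a (11.3 CPM), capn2a (42.8 CPM) and capn2l (8.645 CPM) were below the 50 CPM asked of the genes compared. Those of capn1a and capn2l were near the 10 CPM added, so their r rests on low levels. Over 21 classes in dact1/2 mutant embryos the highest r of a member was 0.269, for capn2a, and that of capn1a was -0.204. Of 5435 genes compared in wildtype, those most like capn8 were mmp30 (0.948), cldni (0.935), si:ch211-213d14.2 (0.933), ptgs1 (0.933) and cavin2b (0.932). Of 5168 genes in dact1/2 mutant embryos they were tspan18b (0.775), gadd45ab (0.757), chd9 (0.744), sat1a.2 (0.738) and snap23.1 (0.704), so the genotypes had different leading genes and the closest match was weaker in the mutant.

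Of a list of 18 further calpain and calpastatin genes, 10 were found in the gene table, and over the 5 sums and 3 comparisons 49 tests gave 0 calls of a higher and 5 of a lower level (10.2%, beside 1.75% of all gene tests), all in dact1/2 mutant embryos and all from capn12 and capn5a, with whole embryo and part of it counted separately. The capn12 gene had 0, 0 and 0 UMIs in dact1/2 mutant embryos, 23, 25 and 53 UMIs in gpc4 mutant embryos, and 2, 111, 15 and 84 UMIs in wildtype. It passed the low-count filter through the gpc4 mutant or wildtype embryos alone, so in dact1/2 mutant embryos it could only be called lower. The share of lower calls in this list is partly set by that filter. With counts pooled over each group and set against 3 UMIs in dact1/2 mutant embryos, capn12 was at least 43.8-fold lower than in gpc4 mutant embryos (adjusted p = 0.035, 2.04% of genes called). Against wildtype replicates 2 to 4 it was at least 91.8-fold lower on the same terms (adjusted p = 0.0547), with most of the wildtype UMIs from replicates 2 and 4. That call was lost with all 4 wildtype embryos (adjusted p = 0.471). In paraxial mesoderm capn12 had 0, 0 and 0 UMIs in dact1/2 mutant, 15, 16 and 28 in gpc4 mutant and 0, 62, 7 and 66 in wildtype embryos, a call against gpc4 mutant (adjusted p = 0.0199). The other called gene was capn5a, an atypical calpain, which in epidermis was 3.63, 4.15 and 3.25 CPM in dact1/2 mutant and 13.3, 12.1 and 11.3 CPM in gpc4 mutant embryos, with 6.90, 6.19, 5.54 and 8.08 CPM in wildtype between them (log2 fold change -1.62, SE 0.29, adjusted p = 0.0169 for dact1/2 mutant against gpc4 mutant). Against wildtype capn5a changed by -0.74 in dact1/2 mutant (adjusted p = 0.42) and by 0.88 in gpc4 mutant epidermis (adjusted p = 0.223), neither of them called.

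Genes of known calpain substrates were examined as a list of 24, all of them found. Their RNA levels do not show whether the proteins were cut. In dact1/2 mutant against wildtype their median log2 fold change was 0.01 in the lateral plate and 0.02 in the paraxial mesoderm, and over the 5 sums and 3 comparisons 290 tests gave 0 calls higher and 2 lower (0.69%, beside 1.75% of all gene tests). Those called lower were itgb1a, an integrin beta subunit, in ectoderm (-0.91, SE 0.19, adjusted p = 0.0386) and ezra, an ezrin that links membrane and actin, in lateral plate mesoderm (-1.93, SE 0.40, adjusted p = 0.0327). With all 4 wildtype embryos neither was called, at -0.83 for itgb1a (adjusted p = 0.381) and -1.51 for ezra (adjusted p = 0.868).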

How the data were processed

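The deposited files hold raw UMI counts per gene and cell, which the authors made from 10x 3′ libraries with Cell Ranger 6.1.0 on GRCz11, per the submitters' processing notes; the mapping of reads shared by related genes is not stated. Cells had at least 1500 UMIs, at least 750 genes, under 5% of UMIs from mitochondrial genes, and log10 genes over 80% of log10 UMIs, and genes were kept when seen in at least 1 of 3000 cells. At most 3 cell barcodes were shared between a pair of libraries, and no doublets were called. Cells were normalised with sctransform 0.4.2, embryo means were subtracted, and 40 principal components were clustered in Seurat 5.3.0 (Louvain resolution 0.3 for the broad groups, 0.8 for classes). A cluster named "X-like" rests on marker lists and may differ from the study's cell types.

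Summed counts were tested in R 4.3.3 with edgeR 4.0.16 (quasi-likelihood, TMM, filterByExpr), and class tests needed at least 10 cells in each embryo used. Members and gene lists were chosen with earlier results of these data known; other genes named were those most like capn8 and the called genes of each list. The labels give replicate numbers but no pairing or batch. Deviations of same-numbered dact1/2 mutant and gpc4 mutant embryos correlated at 0.336, 0.423 and 0.186. Differently numbered embryos were not compared, so a pairing is not established. The main fits took no replicate term, and a replicate block was an alternative. Alternatives were DESeq2 1.42.0, no filter, all 4 wildtype embryos, a replicate block and leaving out each embryo. On simulated counts for 9015 genes (paraxial mesoderm, dact1/2 mutant against wildtype) 95% of 200 genes changed 4-fold were recovered, and 15 unchanged genes were called. The simulation set the same spread between embryos for every gene, so it does not give the recovery of calpains with few counts.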

Additional observations from a re-analysis of the deposited data

Results flagged for a closer look

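The capn8 effect differed from that in epidermis in 5 of 9 tests of the fit chosen after the values were seen. These calls are therefore not independent support. Of all genes, 0.0364% to 0.478% were called in those 5 tests. The difference from epidermis was 5.57 in lateral plate mesoderm, 5.46 in paraxial mesoderm and 2.05 in ectoderm for dact1/2 mutant against wildtype, and 6.05 in the lateral plate and 4.16 in the paraxial mesoderm for dact1/2 mutant against gpc4 mutant. The mutants themselves differed in capn8, by 1.75 on the log2 scale in the whole embryo, 6.03 in the lateral plate and 4.13 in the paraxial mesoderm (dact1/2 mutant over gpc4 mutant).

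Over 40 wildtype groups of 4 embryos, 4 held an embryo far from the others. The rule's chance rate of about 1 in 20 groups does not apply here. The groups are sums of the same 4 embryos that share cells, and a single value above 0 beside values of 0 is always marked. For capn2l the marked embryo was the single wildtype embryo above 0, with 0.648 CPM in ectoderm and 0.452 CPM in paraxial mesoderm for replicate 4, and 0.345 CPM in lateral plate mesoderm for replicate 2. For capns1a it was wildtype replicate 1 in epidermis, at 28.8 CPM.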

How the results depend on the processing

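Of 1007 values recomputed for the members, 999 kept their side of the threshold, 86 uncalled values changed sign, and no called value did. For dact1/2 mutant against wildtype capn8 stayed called in all 12 alternatives in paraxial mesoderm (5.13 to 6.23) and lateral plate mesoderm (5.28 to 6.26). For dact1/2 mutant against gpc4 mutant it stayed called in all 12 in paraxial mesoderm (3.74 to 4.76), lateral plate mesoderm (5.50 to 7.75) and the whole embryo (1.59 to 1.94). In the whole embryo against wildtype the call was lost with all 4 wildtype embryos and a replicate block together (2.27, adjusted p = 0.441). Replicate number 4 occurs in wildtype alone, so the block term takes up wildtype replicate 4 in such a fit. Its fold change rests on replicates 1 to 3 of each group, wildtype replicate 1 among them. In ectoderm against wildtype the capn8 call was lost with all 4 wildtype embryos (1.83, adjusted p = 0.302), also with the replicate block (1.55, adjusted p = 0.824), as was that of the capn8 difference from epidermis with all 4 (1.82, adjusted p = 0.35). The call in the unnamed cluster was lost too (4.68, adjusted p = 0.206). In ectoderm of gpc4 mutant against wildtype capn8 became called without the filter (1.44, adjusted p = 0.0362) and without wildtype replicate 3 (2.20, adjusted p = 0.0985), with 1.17 to 2.20 over the embryos left out. The causes were not tested. Deviations of same-numbered mutant and wildtype embryos correlated at -0.202 to 0.141.

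Among the other members 0 calls became 1 with the replicate block and 3 without the filter, and 0 to 1 when an embryo was left out. The single call was capn1a in epidermis of dact1/2 mutant against gpc4 mutant (1.05 with the block, 1.08 without the filter, 1.26 without gpc4 mutant replicate 1). Those added without the filter were capn9 in lateral plate mesoderm of dact1/2 mutant against gpc4 mutant (-1.94, adjusted p = 0.0657) and in paraxial mesoderm of gpc4 mutant against wildtype (1.99, adjusted p = 0.087). Without thinning, capn8-positive cells of dact1/2 mutant embryos were 5.75% of ectoderm, 18.4% of paraxial mesoderm, 25.9% of lateral plate mesoderm and 33.2% of epidermis. Fits within cell classes were repeated with all 4 wildtype embryos alone. Depth limits the mesoderm comparison to the 4 members that passed the filter.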
